A study of Mus musculus with 12 samples.

Results

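The core clock loop genes are the activator and repressor genes of the circadian feedback loop, chosen by name: the activators Arntl (also called Bmal1), Clock and Npas2, and the repressors Per1, Per2, Per3, Cry1, Cry2 and Ciart (also called Chrono). These are 9 of the 55487 genes listed in every library, 3 activators and 6 repressors, and all 9 passed the filter on low counts. Their RNA was measured in striatal tissue of 12 mice, 3 in each of 4 groups, with 1 poly(A) RNA library per mouse. The cGAS-KO;HD mice, called double mutants from here on, combined the Q175DN knock-in allele with the cGAS knockout. The HD mice were heterozygous for the zQ175 neo-deleted knock-in allele, a long CAG repeat set into Htt as a mouse model of Huntington disease, with cGAS present. The cGAS-KO mice lacked cGAS, the sensor of cytosolic DNA that signals through STING, and did not carry the knock-in allele. The WT mice were C57BL/6J controls with neither mutation. The sources used here name no promoter or cell type that would limit either mutation. The sources used here do not give sex, age, litter, light schedule or the hour of collection, and each mouse gave 1 collection.

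In the loop, ARNTL pairs with CLOCK or NPAS2 and the pair binds E-box sequences in the promoters of Per, Cry and Ciart genes, whose proteins return to the nucleus and hold the pair back. CLOCK and NPAS2 are close relatives that take the same place in the pair, and NPAS2 is the form known mainly from the forebrain. In mouse tissues outside the central pacemaker, Arntl and Npas2 RNA is known to peak when Per and Dbp RNA is low, Cry1 RNA peaks later than that of the Per genes, and Clock RNA cycles little. Per1 and Per2 are also induced within minutes to hours by neuronal activity and by glucocorticoids. The striatum has its own cycling clock genes, which follow the suprachiasmatic nucleus, dopamine and feeding.

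The promoters show where the loop's own binding letters lie in these genes. RefSeq (GRCm38.p6) gave the 250 bases before to 50 bases after a gene start for 8 of the 9 genes, at 12 start sites, and Per2 is not in that table. Both strands were searched for 5 motifs. The E-box CACGTG, read by the ARNTL pair, stood in 7.15% of all 32851 promoter windows, and its variant CACGTT, called the E'-box here, in 4.68%. The D-box, written TTATGTAA or TTACGTAA and read by DBP, TEF, HLF and NFIL3, stood in 1.06%, the ROR element TAGGTCA in 2.61% and the cAMP response element TGACGTCA in 1.79%. The 4 promoters below are shown because they hold the most matches or the loop's own E-box, and the short Arntl stretch because it holds the element through which REV-ERB and ROR proteins act on Arntl. Each is written 5′ to 3′ on the strand of its gene, with the matches in capitals, and the first 4 end at the base before the gene start.
Ciart, chr3:95882229-95882478, minus strand, 3 E-boxes: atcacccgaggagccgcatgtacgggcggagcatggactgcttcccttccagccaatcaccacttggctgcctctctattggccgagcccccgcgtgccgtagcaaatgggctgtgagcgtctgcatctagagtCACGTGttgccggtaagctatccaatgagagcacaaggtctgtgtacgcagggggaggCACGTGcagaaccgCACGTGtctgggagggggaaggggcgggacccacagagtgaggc
Per1, chr11:69098699-69098948, plus strand, 1 E-box: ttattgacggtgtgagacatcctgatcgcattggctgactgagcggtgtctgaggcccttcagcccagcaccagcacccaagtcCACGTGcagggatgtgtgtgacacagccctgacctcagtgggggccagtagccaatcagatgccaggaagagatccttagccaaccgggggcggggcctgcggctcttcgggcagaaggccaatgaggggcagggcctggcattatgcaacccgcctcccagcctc
Cry1, chr10:85185055-85185304, minus strand, 1 E'-box and 1 E-box: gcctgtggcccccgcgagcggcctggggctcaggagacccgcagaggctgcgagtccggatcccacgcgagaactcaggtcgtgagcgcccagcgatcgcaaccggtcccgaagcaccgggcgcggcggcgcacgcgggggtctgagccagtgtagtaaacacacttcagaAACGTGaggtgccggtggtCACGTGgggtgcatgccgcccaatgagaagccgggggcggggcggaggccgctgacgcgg
Per3, chr4:151044666-151044915, minus strand, 2 D-boxes: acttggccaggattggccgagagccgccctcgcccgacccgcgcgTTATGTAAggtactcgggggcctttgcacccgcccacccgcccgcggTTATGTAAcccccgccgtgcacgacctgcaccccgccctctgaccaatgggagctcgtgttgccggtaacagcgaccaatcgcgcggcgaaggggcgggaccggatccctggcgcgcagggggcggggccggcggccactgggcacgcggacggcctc
Arntl, chr7:113207530-113207559, plus strand, 1 ROR element after the start: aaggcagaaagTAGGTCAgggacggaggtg
Counted from the gene start, the E-boxes of Ciart began at -116, -58 and -44, that of Per1 at -166 and that of Cry1 at -60. The D-boxes of Per3 began at -205 and -158, and Cry2 held 1 E'-box at -166. No match to the 5 motifs lay in the windows of Clock and Npas2. A match is a run of letters and not a measured binding site, and matches farther away were not searched for.

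The libraries held between 59195327 and 72765623 counts, and the genes of the loop had between 592 counts (the lowest for Ciart) and 11097 counts (the highest for Clock) in a library. Values are CPM, read counts scaled to a common library size after TMM, and errors of CPM are standard deviations of 3 libraries. Tests are edgeR's quasi-likelihood tests with Benjamini-Hochberg adjustment over 21309 genes (edgeR adjusted p from here on), and a gene is called, or said to have risen or fallen, where that p is under 0.05. Library cGAS-KO replicate 3 stood apart, with 11.5% of its counts from mitochondrial genes against 5.30% to 9.03% in the other 11. Htt averaged 135 ± 8.19 CPM in double mutants, 139 ± 7.48 in HD, 170.4 ± 13.2 in cGAS-KO and 173 ± 5.27 in WT. Cgas averaged 1.03 ± 0.203 CPM in double mutants, 1.15 ± 0.0963 in HD, 0.777 ± 0.177 in cGAS-KO and 1.41 ± 0.129 in WT, and since the sources used here do not give which part of Cgas was removed, whole-gene counts check the knockout only weakly. Markers of striatal projection neurons (8 genes, among them Drd1, Drd2 and Ppp1r1b) were present in every library, and 6 of the 8 fell in HD against WT and 7 of the 8 in double mutants against cGAS-KO. In these comparisons 2.67% and 2.52% of all tested genes fell. In bulk tissue, fewer cells of a type and less RNA per cell cannot be told apart.

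Most of the loop's repressors and 1 of its activators were lower in mice with the knock-in allele. In HD against WT, Npas2, Per1, Per2, Per3 and Ciart fell, none of the 9 rose, and Arntl, Clock, Cry1 and Cry2 were not called. In that comparison 2.67% of all tested genes fell. Without cGAS, in double mutants against cGAS-KO, Npas2, Per1 and Ciart fell and none rose, where 2.52% of all tested genes fell. The median log2 change of the 9 genes was -0.65 in HD against WT and -0.25 in double mutants against cGAS-KO, beside 0.01 and 0.00 over all tested genes. Over both cGAS genotypes together, 6 of the 9 fell (the same genes as in HD against WT plus Cry2), where 7.63% of tested genes fell.

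**Figure D1:**
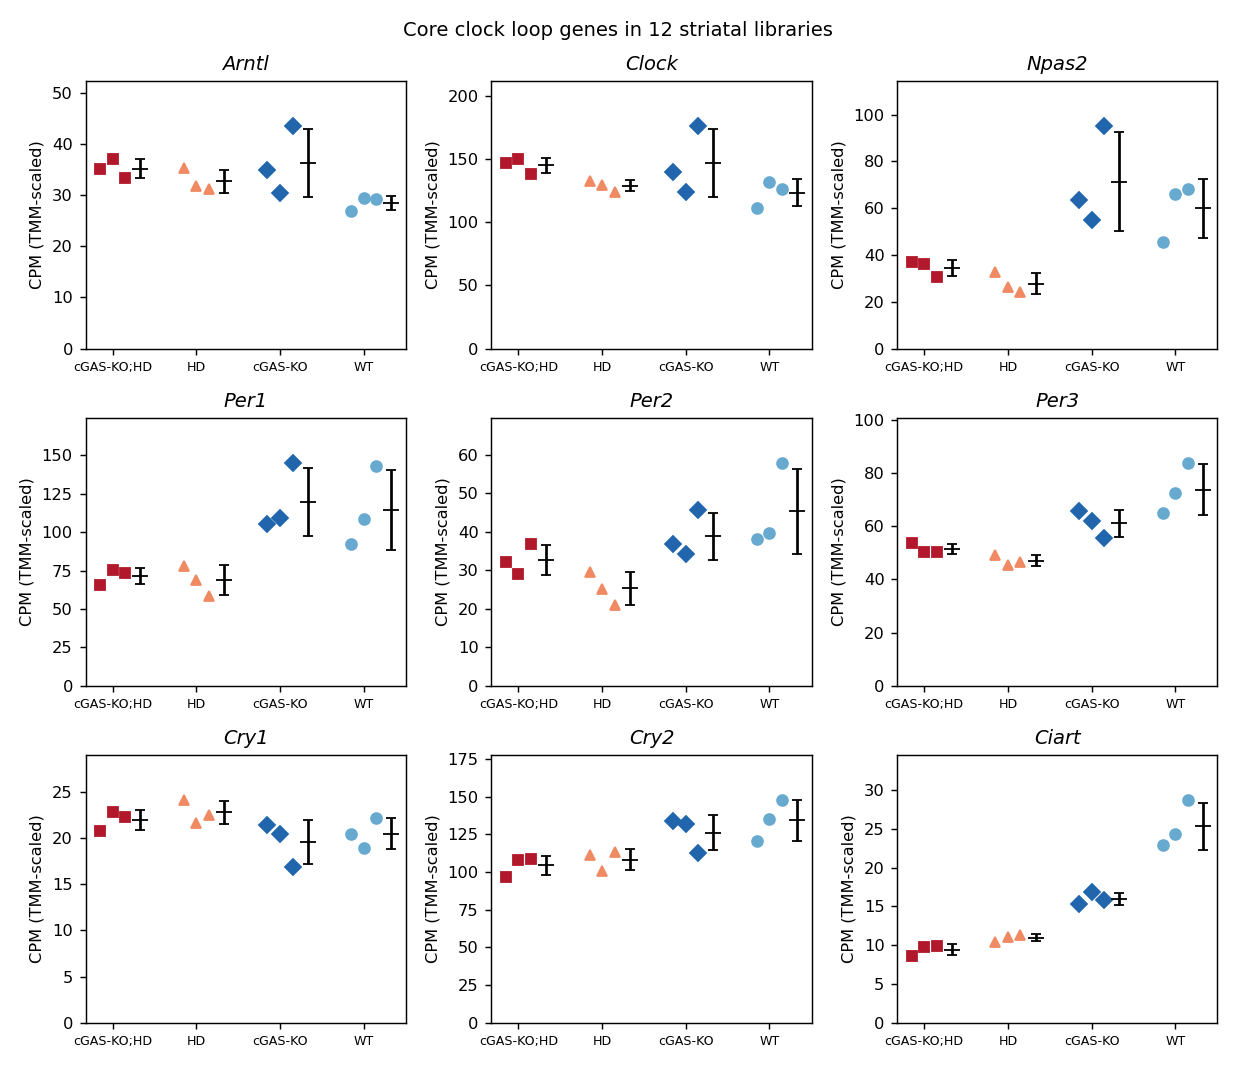
CPM of each loop gene (vertical axis, from 0) in the 12 libraries, 1 point per mouse, with the mean and SD of each group of 3 beside its points, for cGAS-KO;HD (double mutants), HD, cGAS-KO and WT. Npas2, Per1, Per3, Cry2 and Ciart lie lower in both knock-in groups than in their controls, with no overlap, and Arntl, Clock and Cry1 do not.

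Arntl, the activator that every pair needs, lies on chromosome 7 (GRCm38, 113207465 to 113314126). It measured 35.1, 37.1 and 33.3 CPM in double mutants, 35.2, 31.7 and 31.2 in HD, 35.0, 30.5 and 43.6 in cGAS-KO and 27.0, 29.4 and 29.3 in WT. Each of the 9 mutant libraries lay above the 3 WT libraries, and cGAS-KO replicate 3 was the highest of all. The log2 change was 0.20 ± 0.11 in HD against WT (95% interval -0.06 to 0.46, edgeR adjusted p = 0.380) and -0.05 ± 0.11 in double mutants against cGAS-KO (-0.31 to 0.21, edgeR adjusted p = 0.891), neither past the test. In cGAS-KO against WT it was 0.35 ± 0.11, with an unadjusted p of 0.00864 and an edgeR adjusted p of 0.919. Clock (chromosome 5, 76209868 to 76304792), the partner and histone acetyltransferase whose RNA is nearly flat over the day, measured 146, 149.8 and 138 CPM in double mutants, 133, 129 and 124 in HD, 139, 124 and 176 in cGAS-KO and 111, 132 and 126 in WT. HD and WT overlapped, as did double mutants and cGAS-KO, and the double mutants lay above HD without overlap. The log2 change was 0.06 ± 0.11 in HD against WT (edgeR adjusted p = 0.815) and -0.02 ± 0.11 in double mutants against cGAS-KO (edgeR adjusted p = 0.963).

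Npas2 (chromosome 1, 39193731 to 39363236) was the activator that fell. It measured 36.9, 36.0 and 30.5 CPM in double mutants, 32.9, 26.1 and 24.3 in HD, 63.7, 54.9 and 95.3 in cGAS-KO and 45.5, 65.9 and 68.2 in WT. The 6 knock-in libraries were all below the 6 others, and the lowest library without the allele was WT replicate 1. HD stood at 46.3% of WT, a log2 change of -1.11 ± 0.21 (edgeR adjusted p = 0.0132), and double mutants at 48.4% of cGAS-KO, a log2 change of -1.05 ± 0.21 (edgeR adjusted p = 0.0172). The call in HD against WT did not hold without WT replicate 2, WT replicate 3, HD replicate 2 or HD replicate 3 (edgeR adjusted p from 0.0630 to 0.0674, and from 6.14e-06 to 0.0674 over all alternatives, here and below with DESeq2 and limma included), nor in double mutants against cGAS-KO without any 1 of the 3 double mutants (0.0638 to 0.0697) or with no filter on low counts (0.0550, from 2.83e-05 to 0.0697 over all alternatives). The 95% interval of the Npas2 change in HD, -1.59 to -0.63, lay below those of Arntl (-0.06 to 0.46) and Clock (-0.19 to 0.32).

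The period genes code for the repressor proteins that gather the inhibitory complex. Per1 (chromosome 11, 69095217 to 69109960) measured 65.4, 75.4 and 73.2 CPM in double mutants, 78.2, 68.9 and 58.7 in HD, 105, 109 and 145 in cGAS-KO and 92.0, 109 and 143 in WT. No knock-in library reached the lowest library without the allele, 92.0 CPM. Per1 was at 59.9% of WT in HD (log2 change -0.74 ± 0.17, edgeR adjusted p = 0.0284) and at 59.6% of cGAS-KO in double mutants (-0.75 ± 0.17, edgeR adjusted p = 0.0273). The HD call of Per1 did not hold in the compared groups alone, with no filter on low counts, with the replicate number as a block, with cortical marker RNA as a covariate, or without WT replicate 2, WT replicate 3, HD replicate 2 or HD replicate 3 (edgeR adjusted p from 0.0514 to 0.150, and from 0.000677 to 0.150 over all alternatives). The double-mutant call did not hold with no filter, without cGAS-KO replicate 3 or without any 1 double mutant (0.0581 to 0.124, and 0.000692 to 0.124 over all alternatives).

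Per2 (chromosome 1, 91415982 to 91459324), the period gene with the strongest effect on the rhythm when lost in mice, measured 32.2, 28.9 and 36.9 CPM in double mutants, 29.6, 25.1 and 21.0 in HD, 36.7, 34.1 and 45.7 in cGAS-KO and 38.2, 39.8 and 57.9 in WT. HD lay below WT without overlap, while double mutants and cGAS-KO overlapped, and WT replicate 3 was the highest library. HD was at 55.8% of WT (log2 change -0.84 ± 0.18, edgeR adjusted p = 0.0209), and double mutants against cGAS-KO gave -0.25 ± 0.18 (95% interval -0.66 to 0.16, edgeR adjusted p = 0.522). The HD call of Per2 did not hold in the compared groups alone, with the cortical marker covariate, or without WT replicate 3, HD replicate 2 or HD replicate 3 (edgeR adjusted p from 0.0694 to 0.144, and from 0.000194 to 0.144 over all alternatives). Per3 (chromosome 4, 151003652 to 151044665), which tracks phase in peripheral tissue and is dispensable for the rhythm itself, measured 53.6, 50.2 and 50.4 CPM in double mutants, 49.3, 45.6 and 46.5 in HD, 65.8, 61.9 and 55.6 in cGAS-KO and 65.0, 72.6 and 83.9 in WT. Both knock-in groups lay below their controls without overlap, and the gap was wider in HD. Per3 in HD was at 63.8% of WT (log2 change -0.65 ± 0.09, edgeR adjusted p = 0.00241), a call that held under every alternative tried (0.0216 at most). Double mutants against cGAS-KO gave -0.25 ± 0.09 for Per3 (edgeR adjusted p = 0.173), and Per3 passed the test there in 1 alternative, without WT replicate 1 and cGAS-KO replicate 3 together (0.0154, from 0.0154 to 0.406 over all alternatives).

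The cryptochromes, the repressors that contact the ARNTL pair directly, had the log2 changes nearest 0 among the repressors in HD against WT. Cry1 (chromosome 10, 85131700 to 85185064) measured 20.7, 22.9 and 22.2 CPM in double mutants, 24.1, 21.6 and 22.5 in HD, 21.4, 20.4 and 16.9 in cGAS-KO and 20.5, 18.9 and 22.1 in WT. The groups overlapped in all 4 pair comparisons. The log2 change was 0.15 ± 0.10 in HD against WT (95% interval -0.08 to 0.38, edgeR adjusted p = 0.460) and 0.16 ± 0.10 in double mutants against cGAS-KO (-0.07 to 0.40, edgeR adjusted p = 0.442), so a fall of the size seen in Per1 lies outside both intervals. Cry2 (chromosome 2, 92403646 to 92434043) measured 96.9, 108 and 108 CPM in double mutants, 111, 100.4 and 113 in HD, 134, 131 and 113 in cGAS-KO and 120.4, 135 and 148 in WT. Knock-in libraries lay below their controls without overlap in both comparisons, by a small margin. The log2 change was -0.31 ± 0.09 (edgeR adjusted p = 0.0865) in HD and -0.27 ± 0.09 (edgeR adjusted p = 0.136) in double mutants, each short of the test alone, and -0.29 ± 0.07 over both cGAS genotypes (edgeR adjusted p = 0.0117). Cry2 passed in HD against WT with DESeq2 (adjusted p = 0.0363), without WT replicate 1 (edgeR adjusted p = 0.0307) and when cGAS-KO replicate 3 was left out as well (0.00194, from 0.00194 to 0.336 over all alternatives). It passed in double mutants against cGAS-KO without cGAS-KO replicate 3 (edgeR adjusted p = 0.0346) and without both libraries (0.00870, from 0.00870 to 0.383 over all alternatives). Cry2 shares 295 exonic bases with D930015M05Rik on the opposite strand, a gene with 89 counts over the 12 libraries, and the sources used here do not give whether the counting used strand.

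Ciart (chromosome 3, 95878503 to 95882251), which blocks the ARNTL pair and is itself driven by it, had the lowest log2 change of the 9 genes in HD against WT. It measured 8.63, 9.75 and 9.89 CPM in double mutants, 10.4, 11.1 and 11.3 in HD, 15.3, 16.9 and 15.8 in cGAS-KO and 22.9, 24.3 and 28.7 in WT. The 4 groups did not overlap with each other at all, and ran from double mutants, the lowest, through HD and cGAS-KO to WT. HD was at 43.3% of WT (log2 change -1.21 ± 0.10, edgeR adjusted p = 5.06e-05) and double mutants at 58.9% of cGAS-KO (-0.76 ± 0.10, edgeR adjusted p = 0.00136). Both calls held under every alternative tried, with an adjusted p of at most 0.00156 in HD and 0.0139 in double mutants. In cGAS-KO against WT the log2 change was -0.66 ± 0.10, at 63.2% of WT, with an unadjusted p of 2.11e-05 and an edgeR adjusted p of 0.449. That comparison passed the test for Ciart with DESeq2 (adjusted p = 5.74e-05) and in edgeR without WT replicate 1 and cGAS-KO replicate 3 together (adjusted p = 0.0294). Double mutants against HD gave -0.22 ± 0.10 (95% interval -0.45 to 0.02, edgeR adjusted p = 0.757).

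**Figure D2:**
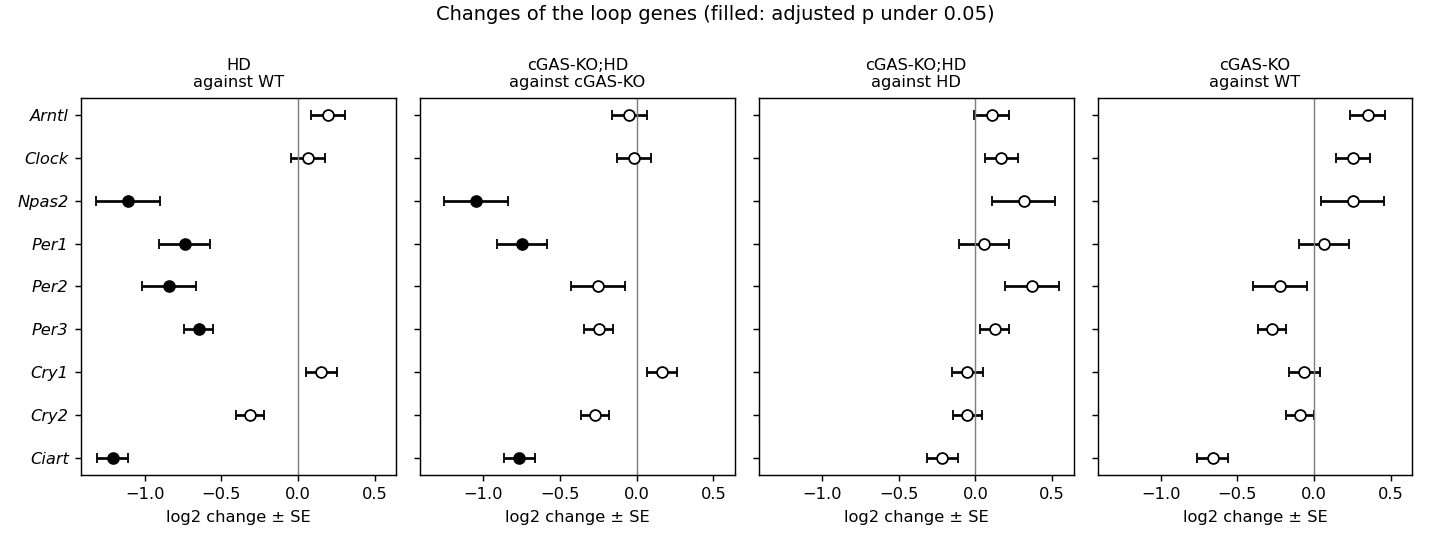
Log2 change with its standard error (horizontal axis) for the 9 loop genes in the 4 pair comparisons, with filled points where the edgeR adjusted p was under 0.05. The filled points are 5 genes in HD against WT and 3 genes in cGAS-KO;HD against cGAS-KO, all lower, and none in the 2 comparisons of cGAS genotypes.

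Counts of separated groups in the pair comparisons were read beside their background. For Npas2, Per1, Ciart, Dbp, Usp2 and the repressor mean, all knock-in libraries lay below all libraries without the allele. How many tested genes separate that way was not counted. Nor was it counted for all mutant libraries against WT (Arntl) or for all groups apart from each other (Ciart). In HD against WT all libraries of 1 group lay beyond the other for Arntl, higher, where 14.6% of tested genes did so, and for Npas2, Per1, Per2, Per3, Cry2 and Ciart, lower, where 13.1% did. In double mutants against cGAS-KO none of the 9 was higher without overlap (10.8% of tested genes were), and Npas2, Per1, Per3, Cry2 and Ciart were lower (10.7%). In double mutants against HD, Clock and Per3 were higher without overlap (8.76%) and Ciart was lower (8.33%). In cGAS-KO against WT, Arntl was higher without overlap (4.25%) and Ciart was lower (4.53%).

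None of the 9 genes was called for loss of cGAS. In double mutants against HD the log2 changes ran from -0.22 for Ciart to 0.37 for Per2, with edgeR adjusted p from 0.757 to 0.934, and 1 of 21309 tested genes (0.00469%) was called in either direction. Per2, at 29.6, 25.1 and 21.0 CPM in HD, had the widest interval of the repressors, from -0.04 to 0.78. In cGAS-KO against WT the log2 changes ran from -0.66 for Ciart to 0.35 for Arntl, and edgeR called no tested gene (0%), although 913 had an unadjusted p under 0.05 and DESeq2 called 6. All 3 activators had positive values there, 0.35 for Arntl, 0.25 for Clock and 0.25 for Npas2, and without cGAS-KO replicate 3 these were 0.20 for Arntl, 0.10 for Clock and -0.01 for Npas2. Averaged over knock-in genotypes, cGAS loss again called no tested gene with edgeR (0%, with 1839 at an unadjusted p under 0.05 and 10 called by DESeq2). The averaged log2 change of Ciart was -0.44 ± 0.07 (unadjusted p = 4.08e-05, edgeR adjusted p = 0.322, DESeq2 adjusted p = 0.000221).

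The difference between the knock-in effects without and with cGAS did not pass the test for any of the 9 genes, and its unadjusted p was under 0.05 for 3 repressors. That difference (the log2 change in double mutants against cGAS-KO minus the log2 change in HD against WT) was 0.59 ± 0.25 for Per2, 0.40 ± 0.13 for Per3 and 0.44 ± 0.14 for Ciart, with unadjusted p of 0.0343, 0.00967 and 0.00873 and edgeR adjusted p of 1.00 each. Over all genes 606 had an unadjusted p under 0.05 for the difference and edgeR called 1 gene (0.00469%). For Npas2 the difference was 0.06 ± 0.29 and for Per1 -0.01 ± 0.23. The 95% intervals of these differences ran from -0.61 to 0.74 for Npas2 and from -0.55 to 0.53 for Per1, wide enough to hold effects that differ in either direction. With the 2 cGAS genotypes averaged, the knock-in allele changed Npas2 by -1.08 ± 0.15, Per1 by -0.74 ± 0.12, Per2 by -0.55 ± 0.12, Per3 by -0.45 ± 0.07 and Ciart by -0.99 ± 0.07 (edgeR adjusted p from 4.91e-06 to 0.0130, and 0.116 for Per2 with the cortical marker covariate), while Arntl stood at 0.07 ± 0.08, Clock at 0.02 ± 0.08 and Cry1 at 0.16 ± 0.07 (edgeR adjusted p from 0.169 to 0.886).

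Whether the pattern is a shift of phase or a loss was asked of the 2 arms of the loop. The mean log2 CPM of the 6 repressors was 5.14, 5.22 and 5.27 in double mutants, 5.26, 5.14 and 5.10 in HD, 5.56, 5.55 and 5.56 in cGAS-KO and 5.60, 5.70 and 5.99 in WT. Every knock-in library was lower than every library without the allele. The mean of the 3 activators was 5.84, 5.87 and 5.70 in double mutants, 5.74, 5.57 and 5.51 in HD, 6.08, 5.89 and 6.49 in cGAS-KO and 5.69, 5.99 and 5.98 in WT, and here WT replicate 1 lay within the range of HD. Repressors minus activators averaged -0.60 ± 0.14 in double mutants, -0.44 ± 0.04 in HD, -0.60 ± 0.30 in cGAS-KO and -0.12 ± 0.15 in WT (SD, n = 3 each). HD minus WT was -0.31 in this measure, and -0.14 with Clock left out of the activators. Double mutants minus cGAS-KO was 0.0008, but -0.17 without cGAS-KO replicate 3, and cGAS-KO minus WT was -0.47, but -0.31 without that library. No test was made, since the genes were chosen with earlier results known. Under the knock-in allele the repressors other than Cry1 were lower, Npas2 was lower as well, and Arntl and Clock were not called. Arntl and Clock had log2 changes of 0.20 and 0.06 in HD against WT, and -0.05 and -0.02 in double mutants against cGAS-KO. The lower activator mean in HD thus came from Npas2, which has more weight in that mean when Clock is left out. The measure was not computed without Npas2. With 1 collection per mouse and no time of day, an earlier or later phase, a smaller daily swing and a lower level at all hours cannot be told apart.

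**Figure D3:**
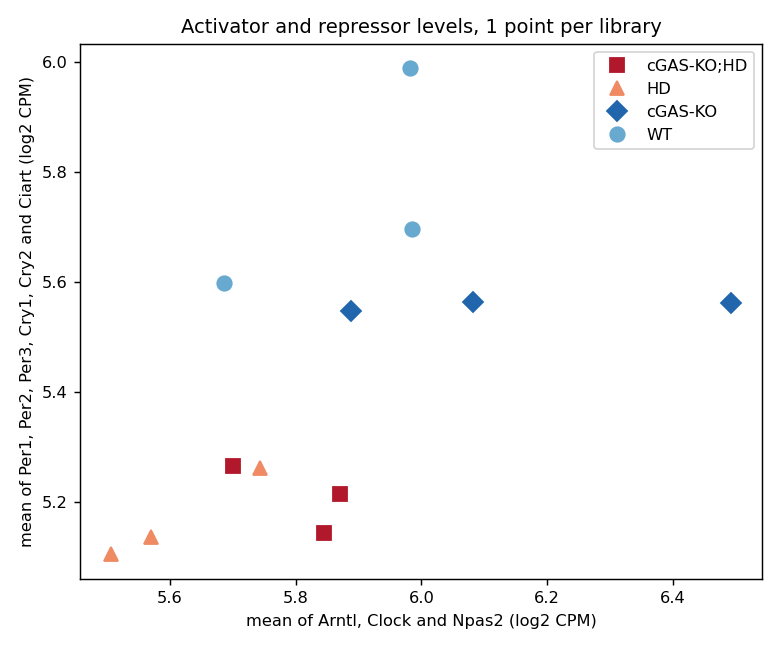
Mean log2 CPM of Per1, Per2, Per3, Cry1, Cry2 and Ciart (vertical axis) against that of Arntl, Clock and Npas2 (horizontal axis), 1 point per library, for cGAS-KO;HD, HD, cGAS-KO and WT. The 6 knock-in libraries lie between 5.10 and 5.27 on the vertical axis and the 6 others between 5.55 and 5.99, while the horizontal ranges overlap.

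Per kilobase of exon, Cry2 and Per1 were the most abundant of the 9 in every group and Arntl was among the lowest. In HD, Cry2 had 17.1 ± 1.09 CPM per kilobase, Per1 12.2 ± 1.74, Clock 9.38 ± 0.319, Cry1 6.82 ± 0.378, Npas2 5.79 ± 0.943, Per3 4.91 ± 0.198, Ciart 4.84 ± 0.204, Arntl 4.35 ± 0.294 and Per2 4.31 ± 0.734. In WT the order was Cry2 at 21.3 ± 2.17 CPM per kilobase, Per1 at 20.3 ± 4.60, Npas2 at 12.5 ± 2.60, Ciart at 11.2 ± 1.35, Clock at 8.97 ± 0.772, Per2 at 7.73 ± 1.88, Per3 at 7.69 ± 0.992, Cry1 at 6.13 ± 0.487 and Arntl at 3.79 ± 0.181. Ciart held the fourth place in WT and the seventh in HD, and Npas2 held the third in WT and the fifth in HD. In HD, Npas2 and Per3, Per3 and Ciart, and Arntl and Per2 lay closer together than the larger of their SDs. Per2 also lay that close to Per3 and to Ciart in HD. In WT so did Cry2 and Per1, Npas2 and Ciart, Clock and Per2, Per2 and Per3, and Per2 and Cry1. Gene lengths are the merged exons of GENCODE M21, which need not be the isoforms used in striatum.

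The median spread of these genes between mice of a group was larger in value without the knock-in allele than with it, and the difference was not tested. The median coefficient of variation of the 9 genes over 3 libraries was 6.19% in double mutants, 6.37% in HD, 15.7% in cGAS-KO and 12.1% in WT, beside medians of 7.67% in double mutants, 7.13% in HD, 12.8% in cGAS-KO and 7.79% in WT over the 15257 tested genes with a mean of at least 1 CPM. In WT the spread was widest for Per2, at 24.3%, then Per1, at 22.6%, and Npas2, at 20.8%, and narrowest for Arntl, at 4.77%. In HD Per2 was again widest, at 17.0%, and Clock was narrowest, at 3.40%. Arntl went against the medians, with a wider spread in HD, 6.76%, than in WT. In cGAS-KO the widest was Npas2, at 29.8%, through replicate 3, and Ciart was narrowest, at 4.84%. Ciart also went against the medians, with 7.33% in double mutants. The cGAS-KO median was not computed without replicate 3.

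Several of the clock's output factors were also lower in mice with the knock-in allele. Among 11 genes of the secondary loop and output, 3 fell in HD against WT, 4 fell in double mutants against cGAS-KO and none rose in either, where 2.67% and 2.52% of all tested genes fell in these comparisons. Over both cGAS genotypes together 6 of the 11 fell and none rose, where 7.63% of tested genes fell. Dbp, the PAR-domain factor driven by E-boxes that acts on D-boxes, measured 65.9, 68.5 and 69.4 CPM in double mutants, 71.0, 66.5 and 62.0 in HD, 111, 109 and 100.2 in cGAS-KO and 131, 129.9 and 137 in WT. Its knock-in libraries all lay between 62.0 and 71.0 CPM, below every other library. The log2 change of Dbp was -0.998 ± 0.07 in HD (edgeR adjusted p = 8.45e-06) and -0.65 ± 0.07 in double mutants (edgeR adjusted p = 0.000266), and -0.31 ± 0.07 in cGAS-KO against WT (edgeR adjusted p = 0.919). Tef, a relative of Dbp, changed by -0.55 ± 0.11 in HD and -0.44 ± 0.11 in double mutants (edgeR adjusted p = 0.0127 and 0.0371), calls that did not hold in HD without WT replicate 2 or 3 or HD replicate 2 or 3 (0.0556 to 0.0754), nor in double mutants without any 1 of those mice or cGAS-KO replicate 1 or 2 (0.0758 to 0.156). Hlf, the remaining PAR-domain factor, fell in double mutants (-0.71 ± 0.14, edgeR adjusted p = 0.0123, and 0.0683 without double mutant replicate 2) and had -0.43 ± 0.14 in HD (edgeR adjusted p = 0.1004). Nr1d1, the REV-ERB repressor of Arntl, fell in double mutants (-0.70 ± 0.17, edgeR adjusted p = 0.0415) and had -0.54 ± 0.17 in HD (edgeR adjusted p = 0.103). Without cGAS-KO replicate 3, which had 171 CPM of Nr1d1 beside 99.9 and 101 in the other cGAS-KO libraries, the double-mutant value was -0.41 (edgeR adjusted p = 0.0135), and the call did not hold without any 1 of the double mutants (0.107 to 0.138). Bhlhe41, an E-box repressor also called Dec2, fell in HD (-0.37 ± 0.07, edgeR adjusted p = 0.00880) and had -0.14 ± 0.07 in double mutants (edgeR adjusted p = 0.281).

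**Figure D4:**
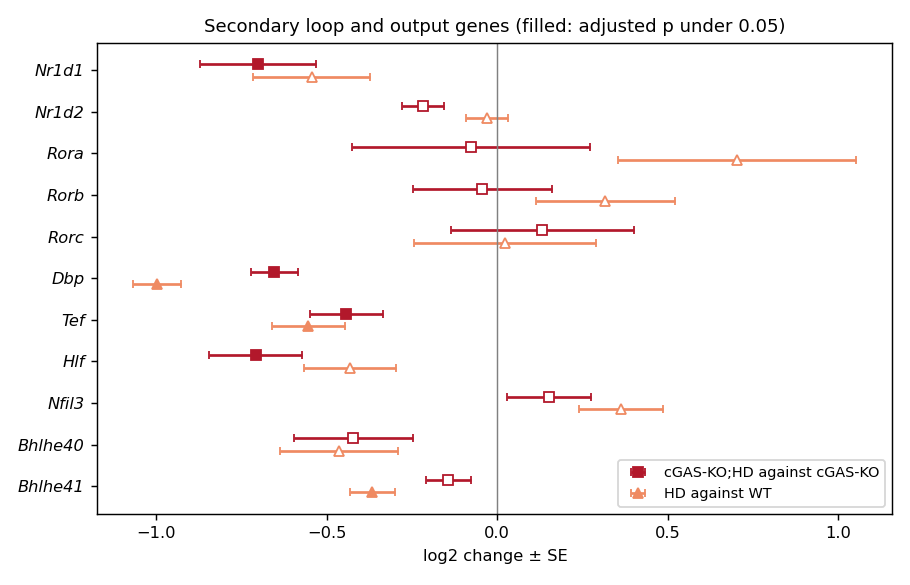
Log2 change with its standard error (horizontal axis) of 11 secondary loop and output genes in cGAS-KO;HD against cGAS-KO (squares) and HD against WT (triangles), with filled marks where the edgeR adjusted p was under 0.05. Dbp and Tef are filled and lower in both comparisons, and no gene is filled on the higher side.

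Among 13 kinases, ligases and other regulators of the loop proteins, Usp2, a deubiquitinase of clock proteins that itself cycles, was the 1 gene called in either comparison. It measured 52.6, 52.5 and 42.0 CPM in double mutants, 48.6, 48.5 and 45.9 in HD, 65.6, 70.7 and 85.9 in cGAS-KO and 74.1, 83.0 and 78.9 in WT, without overlap between knock-in and other libraries. The log2 change was -0.72 ± 0.11 in HD and -0.60 ± 0.11 in double mutants (edgeR adjusted p = 0.00305 and 0.00857). The kinases Csnk1d and Csnk1e, which mark PER proteins, were not called in either comparison. Of all tested genes 2.67% fell in HD against WT and 2.52% in double mutants against cGAS-KO. Over both cGAS genotypes together 2 of the 13 regulators fell, where 7.63% of tested genes fell.

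Lists of genes that respond to inputs of the clock were read for Per1 and Per2. Of 10 glucocorticoid responsive genes, Sgk1 and Zbtb16 fell in HD (log2 change -0.85 ± 0.12 and -0.90 ± 0.21, edgeR adjusted p = 0.00271 and 0.0323) and Sgk1 fell in double mutants (-0.52 ± 0.12, edgeR adjusted p = 0.0356), while the median of the list was -0.36 in HD and -0.06 in double mutants. Zbtb16 stood at 0.03 ± 0.21 in double mutants against cGAS-KO. The Zbtb16 call did not hold without WT replicate 2 or 3 or any 1 HD library (edgeR adjusted p from 0.0809 to 0.156), nor the double-mutant call of Sgk1 without cGAS-KO replicate 1 or 2 or any 1 double mutant (0.0552 to 0.134). Of 10 activity responsive genes none was called in either comparison, although the medians were -0.81 and -0.83 and the values were negative for 9 of 10 in HD and 10 of 10 in double mutants. Egr2, a zinc finger factor and the gene with the smallest p of that list, had -1.88 ± 0.62 in HD (edgeR adjusted p = 0.124) and -2.15 ± 0.62 in double mutants (edgeR adjusted p = 0.0856). Of 8 temperature responsive genes Hsp90aa1, a heat shock chaperone, rose in HD (0.34 ± 0.08, edgeR adjusted p = 0.0383, and 0.0552 to 0.192 without WT replicate 2 or 3 or any 1 HD library), and none was called in double mutants. Beside these lists, 2.67% of all tested genes fell in HD against WT and 2.52% in double mutants against cGAS-KO. Over both cGAS genotypes together, 3 glucocorticoid and 2 activity responsive genes fell and 2 temperature responsive genes rose. There 7.63% of tested genes fell. The share of tested genes that rose is not given here, so the rises of temperature responsive genes stand without their own background. In a setting other than the main fit, with DESeq2 size factors, totals in either direction are at hand. They were 883 of 21309 genes in HD against WT and 2776 of 21309 over both cGAS genotypes. The part of these lists in the values of Per1 and Per2 was not tested. No gene of these 5 lists was called in double mutants against HD or in cGAS-KO against WT.

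RNA of cortical neuron markers varied between libraries, mostly among those without the knock-in allele. The summed level of Slc17a7, Tbr1, Neurod6 and Fezf2 was 101, 217 and 127 CPM in double mutants, 49.8, 97.6 and 93.7 in HD, 229, 109.9 and 884 in cGAS-KO and 71.5, 482 and 577 in WT. The level was highest in cGAS-KO replicate 3 and WT replicates 2 and 3. Within cGAS-KO and within WT, replicate 3 had both the most marker RNA and the most Npas2, Per1 and Per2. In HD the order depended on how the markers were combined. By summed CPM, HD replicate 1 had the least marker RNA and the most of these 3 genes. By the mean log2 CPM of the 4 markers, HD replicate 3 had the least, 2.40 against 2.84 and 3.33 in replicates 1 and 2. HD replicate 3 also had the least of these 3 genes. In double mutants replicate 2 had the most marker RNA, the most Per1, the least Per2 and the middle value of Npas2. None of the 4 markers was at 0 in any library, and none of the 4 was called (median log2 change -2.28 in HD against WT and -1.38 in double mutants against cGAS-KO). WT replicate 1, whose marker level was within the HD range, had 45.5 CPM of Npas2 against 24.3 to 32.9 in HD. It had 92.0 CPM of Per1, against 58.7 to 78.2 in HD, and 22.9 CPM of Ciart, against 10.4 to 11.3 in HD. cGAS-KO replicate 2, whose summed marker level was within the double-mutant range, had 54.9 CPM of Npas2 against 30.5 to 36.9 in double mutants. By mean log2 CPM its marker level, 3.76, lay below that of every double mutant, 4.11 to 4.88. A marker covariate, the mean log2 CPM of the 4 markers and not their sum, was chosen after the data were seen. With it, the log2 change in HD against WT was -0.63 for Npas2 (edgeR adjusted p = 0.0265), -0.39 for Per1 (0.150), -0.57 for Per2 (0.144), -0.61 for Per3 (0.0171) and -1.14 for Ciart (0.000378). The values of Npas2 and Per1 were then smaller by over 1.5 times on the log2 scale, and the calls of Per1 and Per2 were lost. For double mutants against cGAS-KO the 3 calls of Npas2, Per1 and Ciart held in that fit. Outside the loop, the HD calls of Tef (edgeR adjusted p = 0.0502), Zbtb16 (0.226) and Hsp90aa1 (0.0512) did not hold in it. Choroid plexus markers, a summed 99.5 to 1210.3 CPM in double mutants, 275 to 2020.2 in HD, 219.8 to 928 in cGAS-KO and 70.4 to 1910.3 in WT, varied widely inside every group. Markers of the suprachiasmatic nucleus summed to 8.99 to 16.4 CPM in double mutants, 8.63 to 13.0 in HD, 17.8 to 31.1 in cGAS-KO and 15.8 to 30.6 in WT, and none of the 6 was called. In WT and HD these sums were mostly Avp (means of 14.3 and 5.35 CPM) and Vip (6.90 and 1.72). Lhx1 went the other way, at 1.42 CPM in WT and 2.96 in HD. In each knock-in comparison 3 of the 6 log2 changes were positive and 3 negative. The projection neuron markers, which fell with the knock-in allele, summed to 1391 to 1427 CPM in double mutants, 795 to 1650.0 in HD, 3214 to 3998 in cGAS-KO and 2542 to 3655 in WT, and their part in the falls of the loop genes was not tested.

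**Figure D5:**
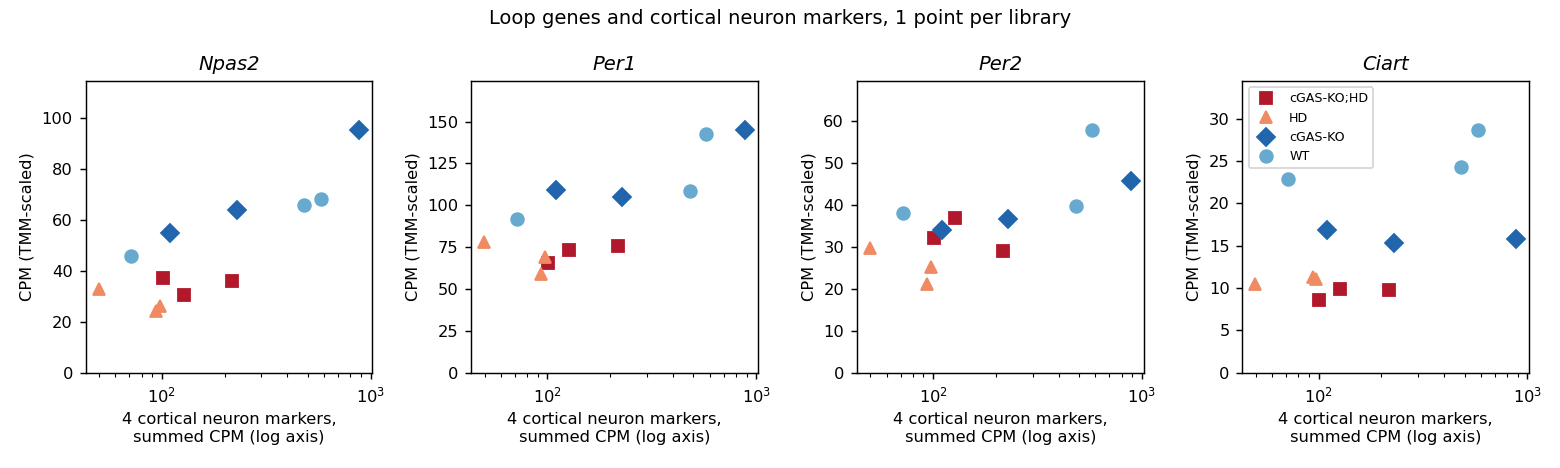
CPM of Npas2, Per1, Per2 and Ciart (vertical axis, from 0) against the summed CPM of 4 cortical neuron markers (horizontal log axis), 1 point per library, for cGAS-KO;HD, HD, cGAS-KO and WT. Npas2 reaches 95.3 CPM in the cGAS-KO library with 884 CPM of markers, while in HD the library with the least summed marker CPM has the most Npas2, 32.9 CPM. By the mean log2 CPM of the markers, the lowest HD library is instead the one with the least Npas2. No knock-in library exceeds 217 CPM of markers, and each has less Ciart than any library without the allele.

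The genes most like 1 activator and 1 repressor were listed after the mean of each group was taken away, over 12 libraries and 15248 genes, as a description with no test. For Arntl the highest Pearson r was with Rasa2 (0.98), Samd12 (0.98), Bclaf1 (0.98), 1500026H17Rik (0.98) and Pcdhgb1 (0.97), and the lowest was with Flywch2 (-0.98), Adra2b (-0.98), Xrcc2 (-0.97), Nectin2 (-0.97) and Dusp26 (-0.97). Without cGAS-KO replicate 3, where Arntl was highest, these ran from 0.93 to 0.97 and from -0.95 to -0.92. For Ciart the highest was with Ccm2 (0.91), Dab2ip (0.91), Unkl (0.91), Dlgap3 (0.89) and Rrm2 (0.89), and the lowest was with A730046J19Rik (-0.96), Znrf2 (-0.91), Plxdc2 (-0.90), Cxxc4 (-0.90) and Fchsd2 (-0.90). The loop genes themselves were left out of this ranking, so their absence from these 20 genes was set in advance. None of the 20 belongs to the other clock lists. Among the loop genes, Arntl had r of 0.96 with Clock, 0.91 with Npas2 and from -0.44 (Cry1) to 0.68 (Per1) with the repressors. For Ciart the values with loop genes ran from -0.13 (Arntl) to 0.64 (Cry2). The 12 points share library depth and tissue makeup, so likeness here says nothing of shared control.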

How the data were processed

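Striatal poly(A) RNA of 12 mice was sequenced from directional libraries, per the labels. The authors deposited 1 table of raw counts per library, with a whole number for each Ensembl gene. The sources used here do not give the aligner, annotation, genome build or counting rule. Groups and replicate numbers came from the sample titles. Symbols were taken for 55141 of 55487 genes (99.4%) from GENCODE M21, which is on GRCm38, and genes without one held at most 0.0611% of a library's counts. The 9 genes and the other lists were chosen with earlier results of these data known, so no list was tested as a set and no p was adjusted over a list alone.

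Genes were kept by filterByExpr (minimum count 10, minimum total 15), library sizes were scaled by TMM, and edgeR 4.0.16 fitted 1 mean per group over all 12 libraries with its robust quasi-likelihood test (R 4.3.3, 8 residual degrees of freedom, common dispersion 0.0326). The 7 comparisons were 4 between pairs of groups, the difference of the knock-in effects, and the effect of each mutation averaged over the other. The p-values measure the spread between mice as collected. All 9 genes are named in each comparison, of each other list up to 4 called genes by smallest p (Nr1d1 and the uncalled regulators were named after their values were seen), and for Arntl and Ciart the 5 most and 5 least similar genes. The sources used here do not give whether mice with the same replicate number were paired, and the main fit did not pair them. Deviations from group means correlated at a median of -0.10 over 18 same-numbered pairs (from -0.45 to 0.46). Over 36 other pairs the median was 0.06 (from -0.51 to 0.45). These values cannot show whether litter, cage or hour was matched. A regulator and a cortical marker of these lists are not reported here and were left out of their counts and sums. The scripts were tested on simulated data. Alternatives used DESeq2 1.42.0, limma 3.58.1, other filters, an Xist covariate for sex, a replicate block and left-out libraries.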

Additional observations from a re-analysis of the deposited data

How the results depend on the processing

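The 6 calls of the averaged knock-in effect and the 0 calls in double mutants against HD and for the difference of the knock-in effects changed by no more than 1 gene under any alternative. In HD against WT the 5 calls became 3 with the compared groups fitted alone and 3 with the cortical marker covariate, which was added after the data were seen, and 2 to 6 with 1 library left out. In double mutants against cGAS-KO the 3 calls became 1 with no filter on low counts, 5 without WT replicate 1 and cGAS-KO replicate 3 together, and 1 to 3 with 1 library left out. Ciart was the 1 call in cGAS-KO against WT with DESeq2's Wald test, and also when WT replicate 1 and cGAS-KO replicate 3 were both left out, and the 1 call for the averaged cGAS effect with DESeq2. With the replicate number as a block (replicate block), HD against WT kept 4 calls (Per1 at an edgeR adjusted p of 0.0514), double mutants against cGAS-KO 3 and the averaged knock-in effect 6. The difference of HD minus WT in repressors minus activators was -0.14 without Clock and -0.31 with it. Leaving out 1 library at a time for that measure, and all alternatives for Nr1d1, were added after the data were seen. Among the other named genes, the double-mutant calls also failed for Nr1d1 with no filter, limma-voom, the compared groups alone or the block (adjusted p from 0.0508 to 0.129), for Tef with the compared groups alone, the block or the Xist covariate (0.0724 to 0.109) and for Usp2 with the compared groups alone (0.0565), and the HD call of Hsp90aa1 with the block (0.0738).

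Among the 9 genes, signs turned only for those not called in the comparison. With the cortical covariate, Arntl was 0.043 and Clock 0.084 in double mutants against cGAS-KO, and Arntl was -0.044, Npas2 -0.011, Per1 -0.18 and Cry1 0.0037 in double mutants against HD. Without WT replicate 1 and cGAS-KO replicate 3 together, Clock was -0.014 in HD against WT, Arntl 0.10 and Clock 0.13 in double mutants against cGAS-KO, and Npas2 -0.18, Per1 -0.23 and Cry1 0.026 in cGAS-KO against WT. With 1 library left out, Clock ran from -0.019 to 0.12 in HD against WT, Arntl from -0.16 to 0.10 and Clock from -0.13 to 0.13 in double mutants against cGAS-KO, Per1 from -0.040 to 0.16 in double mutants against HD, and Npas2 from -0.0091 to 0.41, Per1 from -0.091 to 0.26 and Cry1 from -0.13 to 0.036 in cGAS-KO against WT. The causes of these changes were not tested. Each of the 9 genes had at least 592 counts in every library, and 3 mice per group with 1 collection each limit the precision.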
